A study of Mus musculus with 2 samples.

Results

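Heat shock proteins and chaperones are described here in nuclei of the aged male mouse hippocampus after an early chemical exposure. The members are all genes with a row in any of 9 cell type tables whose symbol starts with Hsp or Dnaj, or with Cct followed by a digit, leaving out Hspg2 and symbols ending in os. They number 59 of 10596 genes, and they have 278 of the 41442 rows of the 9 tables. Of the 59 members, 5 are listed in all 9 tables, 6 in 8 tables, and 6 in 1 table alone.

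The GWI group, named for the Gulf War Illness that it models, received pyridostigmine bromide at 0.7 mg/kg and permethrin at 200 mg/kg by daily intraperitoneal injection for 10 days at 10 weeks of age. Pyridostigmine inhibits cholinesterases, and permethrin is a pyrethroid insecticide that keeps sodium channels of nerve cells open. The control group received vehicle on the same schedule. All mice were C57BL/6J males per the series description, although the genotype label of the GWI sample reads C57/BL7 and that of the control sample C57/BL6, and all were killed at 19 months. The hippocampi of 3 mice were pooled into 1 library per group, so the spread between mice cannot be read, no difference has a test, and the values below describe these 2 libraries. The 9 tables share those libraries and are not replicates of one another.

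Chaperones bind unfolded or partly folded proteins and help them fold, assemble or reach degradation. Proteins of the Hsp70 family hold clients in a cycle driven by ATP, J proteins (the Dnaj genes) deliver clients and start the cycle, and exchange factors such as the Hsp110 proteins reset it. Hsp90 acts later on signalling proteins such as kinases and steroid hormone receptors, and the CCT ring folds actin and tubulin. The cytosol, mitochondria and endoplasmic reticulum (ER) each have their own set: heat shock factor 1 drives many cytosolic genes, and the unfolded protein response drives the ER genes. In neurons, chaperones also serve synaptic vesicle cycling, where Dnajc5 and the auxilin Dnajc6 work with Hspa8.

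Some ER chaperone promoters are shown first, because 3 of them carry a motif named for the ER stress response. The motif was picked as one tied to ER genes, so its count is a description and not independent support. The ER stress response element, searched on both strands as CCAAT and CCACG with 9 bases of any kind between them, lay in 300 bases around an annotated start (250 before, 50 after) of 3 of the 48 members with a promoter window in the RefSeq table for GRCm38.p6. They were Hspa5, Hsp90b1 and Dnajc3. Among all 27025 genes with such a window, 0.137% held it. The stretches are given 5′ to 3′ on the gene's strand, with the element in capitals. The first is at chr2:34772020-34772048 on the plus strand, and the next, with 2 copies, at chr10:86705510-86705694 on the minus strand. The last is at chr14:118937682-118937931 on the plus strand.
Hspa5: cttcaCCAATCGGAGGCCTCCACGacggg
Hsp90b1: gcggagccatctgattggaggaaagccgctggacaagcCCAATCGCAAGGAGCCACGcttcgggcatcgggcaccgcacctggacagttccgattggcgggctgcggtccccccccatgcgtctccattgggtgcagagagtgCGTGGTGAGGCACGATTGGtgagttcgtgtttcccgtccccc
Dnajc3: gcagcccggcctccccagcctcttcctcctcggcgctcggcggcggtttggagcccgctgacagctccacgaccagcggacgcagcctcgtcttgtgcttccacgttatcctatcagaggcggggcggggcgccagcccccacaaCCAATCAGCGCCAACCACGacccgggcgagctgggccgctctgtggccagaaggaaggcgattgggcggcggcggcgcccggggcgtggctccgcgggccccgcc

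The heat shock element was searched in the same windows and on both strands as GAA, TTC and GAA in turn with 2 bases of any kind between neighbours, and 4 of the 48 members held it against 0.662% of all genes. These were Hspd1 and Hspe1, which are divergent neighbours and share the same copy, together with Dnajb6 and Hsph1. They are shown because Hsph1 was lower in the GWI library in every table that lists it. Its match lies just past the annotated start, at positions 15 to 27 or 36 to 48 depending on which of 2 annotated starts is used. The stretches are at chr5:149636280-149636308 on the minus strand, chr1:55088054-55088081 on the minus strand and chr5:29735844-29735872 on the plus strand. In the Hspd1 stretch, 2 overlapping matches make up the capitals.
Hsph1: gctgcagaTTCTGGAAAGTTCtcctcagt
Hspd1: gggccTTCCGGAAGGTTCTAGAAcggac
Dnajb6: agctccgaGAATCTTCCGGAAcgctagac
The 4 genes did not move together: Hspd1 was lower in 4 of 4 tables, Dnajb6 was higher in 5 of 7, and Hspe1 was listed once, higher by 0.21 in Other. A match is a description of the letters. No window was at hand for 11 members, namely Hsp90aa1, Hsp90ab1, Hspa8, Hspa9, Hspa13, Cct4, Dnajc2, Dnajc5, Dnajc11, Dnajc12 and Dnajc18.

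The cytosolic Hsp90 genes were lower in the GWI library in every cell type, while most ER chaperone genes were higher in neurons, glia and microglia. Hsp90aa1 and Hsp90ab1 were lower in 9 of 9 of the authors' deposited tables, as were 16.7% of all genes listed in every table. The ER group of 11 genes was higher in 37 of 46 rows in the excitatory neuron, inhibitory neuron, oligodendrocyte, OPC (oligodendrocyte precursor cell), astrocyte and microglia tables. Over all genes of those 6 tables, 49.7% of rows were above 0. The median of the ER rows there was a log2 fold change of 0.18, against -0.05 over all genes. No listed row lies nearer 0 than 0.05, so the median over all genes stands at the edge of that gap. Relative to genes of like length the ER median was 0.08, with 35 of 46 rows above 0. A row needs detection in at least 10% of nuclei of 1 library, and 7 of the 37 higher rows were under it in the control library, so that their direction was favoured by the listing. Among rows at or above it in both libraries, 30 of 39 ER rows were higher, with a median of 0.14, against 46.6% of such rows of all genes. All 18 Hsp90aa1 and Hsp90ab1 rows were at or above it in both libraries. Each value is the authors' log2 fold change of mean expression, GWI over control.

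**Figure D1:**
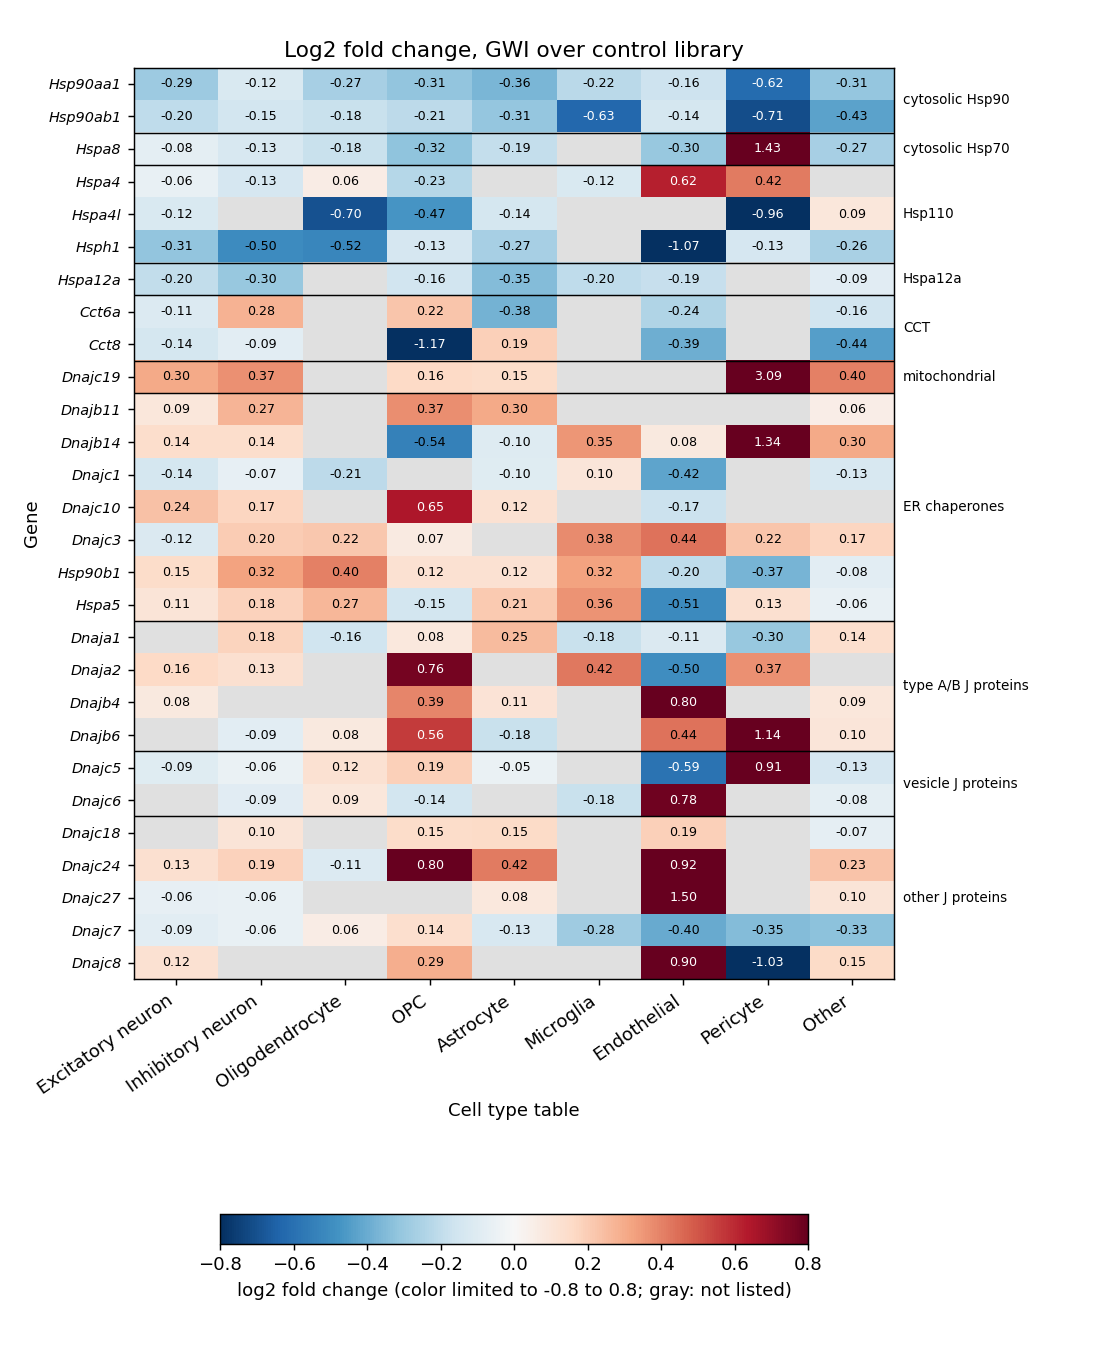
Log2 fold change of the GWI over the control library for the 28 members listed in at least 5 tables (rows, grouped by role) in each of 9 cell type tables (columns), with each value printed and unlisted genes in gray. The Hsp90aa1 and Hsp90ab1 rows are blue throughout, and the ER rows are mostly red in the 6 columns from excitatory neuron to microglia.

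Hsp90aa1 encodes the stress-inducible cytosolic Hsp90 and lies at chr12:110690605-110702728 on the minus strand (GENCODE M21, GRCm38). By the authors' deposited tables its RNA was found in 45.3% of excitatory neuron nuclei of the GWI library against 46.7% in the control library, and for inhibitory neurons in 39.9% against 41.3%. Among glia the GWI share was 31.0% against 33.5% for control in astrocytes, 21.1% against 24.0% in oligodendrocytes and 21.2% against 22.3% in OPCs. The difference was narrow in microglia, at 17% of GWI against 17.3% of control nuclei, and wider in endothelial cells, at 29.1% against 34.7%. Detection was lower in the GWI library in all 9 tables, although over all listed genes the median difference, GWI minus control, was above 0 in 7 of the 9, from 0.1 points in inhibitory neurons to 2.0 in excitatory neurons. The log2 fold change was -0.36 in astrocytes, -0.31 in OPCs, -0.29 in excitatory neurons, -0.27 in oligodendrocytes, -0.22 in microglia and -0.12 in inhibitory neurons. Endothelial cells had -0.16, pericytes -0.62 and Other -0.31.

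Hsp90ab1 encodes the constitutive cytosolic Hsp90 and lies at chr17:45567775-45573271 on the minus strand. Its lowest value outside the vascular tables was in microglia, with a log2 fold change of -0.63 and detection in 18.5% of GWI against 25% of control nuclei in the authors' deposited table. That was the 1 member of 14 in microglia at or below -0.5, a size that 2.29% of all genes of that table reached. In astrocytes its log2 fold change was -0.31, with 40.5% of GWI against 43.4% of control nuclei, and in Other it was -0.43, with 66.8% against 74.6%. Values nearer 0 stood in excitatory neurons (-0.20), oligodendrocytes (-0.18), inhibitory neurons (-0.15) and endothelial cells (-0.14). Pericytes had -0.71, with 21.8% of GWI against 34.9% of control nuclei. OPCs had -0.21 although detection there was higher, at 31.9% of GWI against 29.8% of control nuclei. Of the 323 genes listed in all 9 tables, 54 were lower in every one (16.7%), and of the 5 members among them these 2 were.

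Hsph1, an Hsp110 exchange factor that also holds unfolded clients, was lower in all 8 tables that list it, as were 14.1% of the 581 genes listed in 8 tables. It lies at chr5:149614287-149636376 on the minus strand. Its RNA was found in 24.9% of GWI against 32.2% of control nuclei in inhibitory neurons, with a log2 fold change of -0.50, and in 8.4% against 11.9% in oligodendrocytes, with -0.52. Excitatory neurons had -0.31, with 38.4% of GWI against 41.2% of control nuclei, astrocytes had -0.27 and Other -0.26. OPCs and pericytes each had -0.13, and endothelial cells had -1.07, with 7.8% of GWI against 12.6% of control nuclei in the authors' deposited table. Detection was lower in the GWI library in all 8, and in oligodendrocytes and endothelial cells it was under 10% there, so those rows were listed through the control library alone.

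The other exchange factors of this family followed less closely. Hspa4l was lower in 5 of 6 tables and at 0.09 in Other. It was at -0.70 in oligodendrocytes (7.2% of GWI against 11.1% of control nuclei), -0.47 in OPCs and -0.96 in pericytes. The pericyte row of Hspa4l, at 7.7% of GWI nuclei, was listed through the control library alone. Hspa4, its relative, lay between -0.23 and 0.06 outside the vascular tables and was at 0.62 in endothelial cells and 0.42 in pericytes in the authors' deposited tables. In oligodendrocytes, Hspa4l and Hsph1 were 2 of 17 members at or below -0.5, a size that 1.32% of all genes of that table reached. Both were under 10% detection in the GWI library and so were listed through the control library alone, which favours a lower value, and no member at or above 10% in both libraries lay past -0.5 there. None of the 17 members there reached 0.5, as 1.95% of all genes did.

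Hspa8, the constitutive cytosolic Hsp70 that also strips clathrin from vesicles, was lower in 7 of 8 tables, a count of at least 7 that 35.6% of genes listed in 8 tables shared. Its log2 fold changes were small in neurons, at -0.08 (excitatory) and -0.13 (inhibitory), and lay between -0.32 and -0.18 in oligodendrocytes, OPCs, astrocytes, endothelial cells and Other. Pericytes went the other way at 1.43, with detection in 20.5% of GWI against 9.5% of control nuclei in the authors' deposited table. That pericyte row was listed through the GWI library alone, which favours a higher value. In excitatory neurons detection was higher in the GWI library, at 43.8% against 41.8%, while the log2 fold change was below 0. Hspa14, a ribosome-associated Hsp70, lay between -0.32 and 0.12 in 4 tables. The inducible Hsp70 genes Hspa1a and Hspa1b and their J protein Dnajb1 had no row in the tables used here and are not analysed here.

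**Figure D2:**
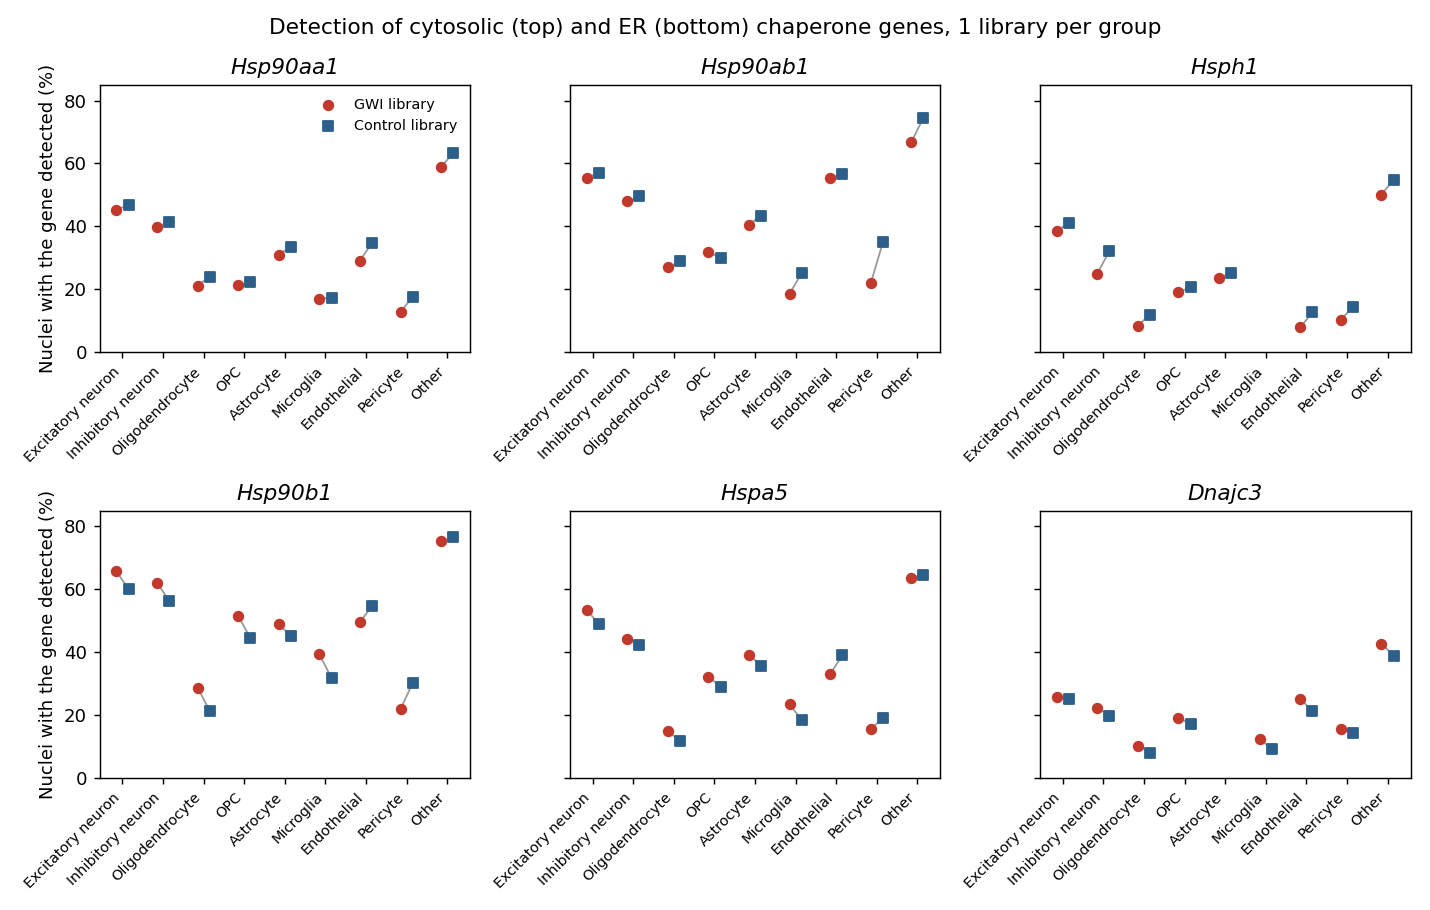
Percentage of nuclei in which each gene was detected in the GWI library (red circles) and the control library (blue squares), by cell type, for 3 cytosolic genes in the top row and 3 ER genes in the bottom row, with 1 library per group and no error bars. Circles lie below squares for Hsp90aa1 and Hsph1 in every listed cell type, and above them for Dnajc3 in all 8.

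Among ER chaperones, Hsp90b1 encodes GRP94, the Hsp90 of the ER lumen, and lies at chr10:86690209-86705509 on the minus strand. By the authors' deposited tables, oligodendrocyte nuclei with its RNA made up 28.7% in the GWI library against 21.3% in the control library, and microglial nuclei 39.3% against 31.7%. OPCs stood at 51.5% for GWI against 44.5% for control, and excitatory neurons at 65.7% against 60.0%. Its log2 fold changes were 0.40 in oligodendrocytes and 0.32 in both inhibitory neurons and microglia. They were 0.15 in excitatory neurons and 0.12 in OPCs and in astrocytes. It was at -0.08 in Other, -0.20 in endothelial cells and -0.37 in pericytes, so as deposited it was higher in the 6 neuronal, glial and microglial tables and lower in the other 3. Relative to genes of like length those 6 values were smaller. They were 0.18 in inhibitory neurons and oligodendrocytes, 0.11 in microglia, 0.05 in excitatory neurons, 0.006 in astrocytes and -0.08 in OPCs.

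Hspa5 encodes BiP, the ER Hsp70 that restrains the sensors of the unfolded protein response, and lies at chr2:34771970-34777547 on the plus strand. It had log2 fold changes of 0.36 in microglia, 0.27 in oligodendrocytes, 0.21 in astrocytes, 0.18 in inhibitory neurons and 0.11 in excitatory neurons. In microglia it was detected in 23.4% of GWI against 18.3% of control nuclei in the authors' deposited table. Lower values stood in OPCs (-0.15), Other (-0.06) and endothelial cells (-0.51), and pericytes had 0.13. In OPCs detection went the other way, with 32.2% of GWI against 29% of control nuclei. Relative to genes of like length Hspa5 was at 0.15 in microglia, 0.09 in astrocytes, 0.04 in oligodendrocytes and 0.008 in inhibitory neurons. It then lay below 0 in excitatory neurons (-0.03), pericytes (-0.07), Other (-0.19), OPCs (-0.34) and endothelial cells (-0.44).

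Dnajc3, the J protein p58IPK of the ER lumen, was higher in 7 of 8 tables, with 0.38 in microglia, 0.44 in endothelial cells and 0.20 to 0.22 in inhibitory neurons, oligodendrocytes and pericytes. It was at 0.17 in Other, 0.07 in OPCs and -0.12 in excitatory neurons, and its detection was higher in the GWI library in all 8. Dnajb9, a J protein induced by the unfolded protein response, had the highest values of the group in neurons. It was at 0.70 in inhibitory neurons, with detection in 10.2% of GWI against 7.3% of control nuclei, and at 0.41 in excitatory neurons, with 11.3% against 7.9%, in the authors' deposited tables. In Other it was at 0.29. In both kinds of neuron it was listed through the GWI library alone, being under 10% in control nuclei.

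The remaining ER members mostly lay on the same side. Dnajb11, a cofactor of BiP, was higher in 5 of 5 tables, between 0.06 and 0.37, as were 15.5% of all genes listed in 5 tables. Hspa13 was higher in 4 of 4, between 0.12 and 0.67. Dnajc10, an ER disulfide reductase, was higher in 4 of 5 tables, with 0.65 in OPCs, where it was detected in 22.0% of GWI against 13.9% of control nuclei in the authors' deposited table. Dnajc25 was higher in 3 of 4, with 0.45 in astrocytes. Dnajb14, which sits in the ER membrane, was higher in 6 of 8, with 0.35 in microglia, 0.30 in Other and 1.34 in pericytes, but was at -0.54 in OPCs. Its relative Dnajb12 was higher in 2 of 4, between -0.11 and 0.16. The highest values of Dnajb11 (OPCs), Hspa13 (endothelial cells), Dnajc25 (astrocytes) and Dnajb14 (pericytes) came from rows listed through the GWI library alone. Control detection there was 7.4% to 8.4%, and such a listing favours a higher value. Dnajc1 was the exception as deposited, with lower values in 6 of 7 tables, from -0.42 in endothelial cells to 0.10 in microglia. It spans 197 kb. Relative to genes of like length it was at -0.35 in endothelial cells and 0.20 in microglia. Elsewhere it then lay between -0.09 in oligodendrocytes and 0.04 in inhibitory neurons. In microglia all 5 listed ER members were higher, with a median of 0.35, against -0.06 over all genes of that table, and of 0.20 relative to genes of like length. Of these, Dnajb14 and Dnajc3 were listed through the GWI library alone, and the other 3 had a median of 0.32.

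**Figure D3:**
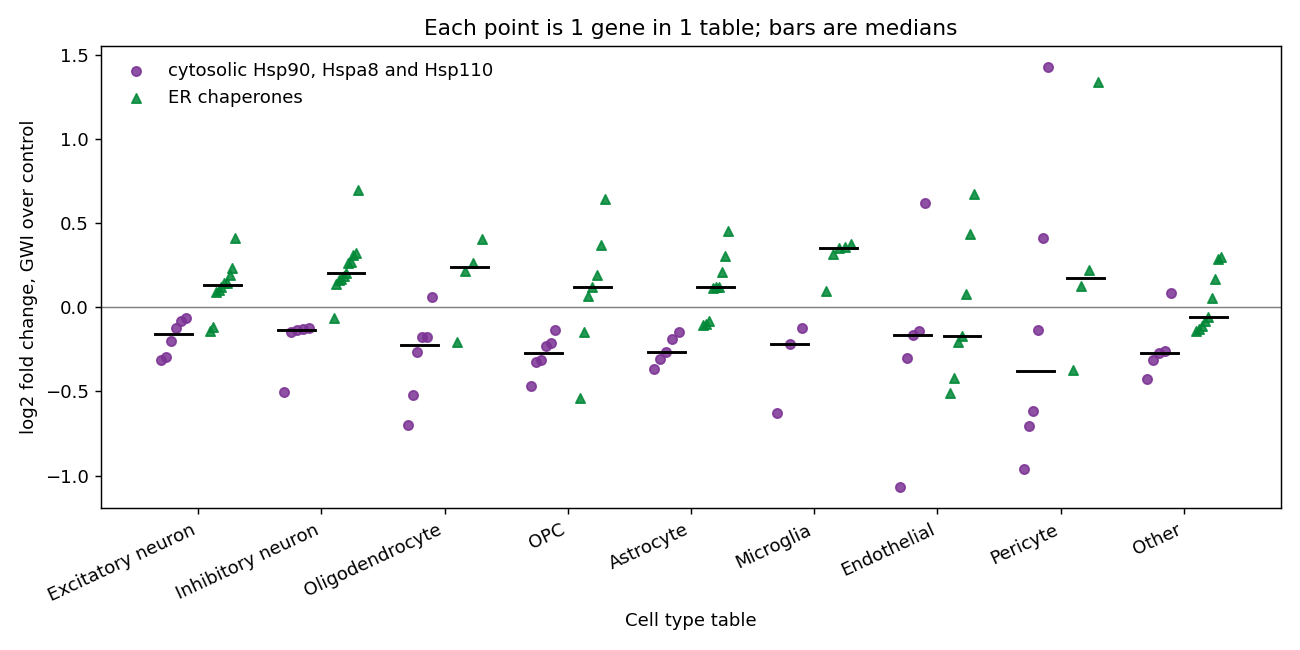
Log2 fold change of the GWI over the control library for each listed gene of the cytosolic Hsp90 and Hsp110 groups with Hspa8 (purple circles) and of the ER group (green triangles) in each cell type table, with black bars at the group medians. The ER median lies above 0 and the cytosolic median below 0 in the 6 tables from excitatory neuron to microglia, and both lie below 0 in endothelial cells and Other.

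Setting an ER chaperone against its cytosolic relative in the same table removes any scaling that all genes of that table share. The log2 fold change of Hsp90b1 minus that of Hsp90ab1 was 0.95 in microglia, 0.58 in oligodendrocytes, 0.47 in inhibitory neurons and 0.43 in astrocytes. It was 0.35 in excitatory neurons, 0.33 in OPCs, 0.34 in pericytes and in Other, and -0.06 in endothelial cells. Against Hsp90aa1 the difference was above 0 in 8 of 9 tables, with a median of 0.44 and endothelial cells at -0.04. For Hspa5 minus Hspa8 it was above 0 in 6 of 8 tables, from 0.18 in OPCs to 0.44 in oligodendrocytes, with endothelial cells at -0.21 and pericytes at -1.30. The pericyte row of Hspa8 was listed through the GWI library alone. These pairs were chosen with their values known.

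**Figure D4:**
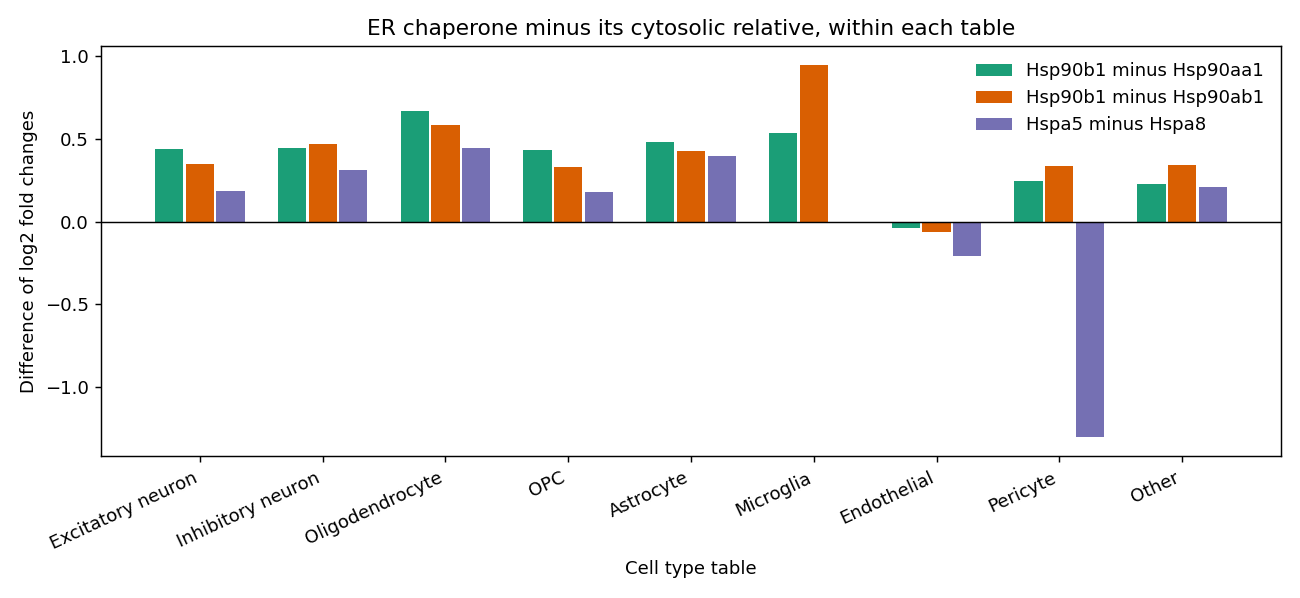
Difference between the log2 fold changes of an ER chaperone gene and a cytosolic relative in the same cell type table (bars, from 0), for 3 pairs of genes, with no bar for Hspa5 minus Hspa8 in microglia, where Hspa8 is not listed. The Hsp90b1 pairs are above 0 in all tables but that of endothelial cells.

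ER genes outside the naming rule were described from a list of 20 folding and unfolded protein response genes, of which 17 had a row. In those 6 cell types the GWI library was higher for 45 of 55 rows (median 0.15), and for 36 of 55 relative to genes of like length. Some of the higher rows were listed through the GWI library alone, so that their direction was favoured by the listing. Examples are Pdia4 in inhibitory neurons, at 8.8% of control nuclei, and Calr in oligodendrocytes, at 9.5%. In the authors' deposited tables Pdia3, a disulfide isomerase for glycoproteins, was higher in 9 of 9 tables, between 0.15 and 1.21, as were 9.60% of all genes listed in every table. The calcium-binding chaperone Calr was higher in 7 of 7 (6.02% of genes listed in 7 tables), and Sec63, the J protein of the ER translocon, in 8 of 8 (7.06% of genes listed in 8). Over the 9 tables the sensor genes did not share this. Ern1 was lower in 5 of 5, between -0.59 and -0.19, as were 14.0% of all genes listed in 5 tables. Atf6 was lower in 2 of 2 and Eif2ak3 in 3 of 5. Within the 6 neuronal, glial and microglial tables Eif2ak3 was at 0.34 in OPCs, 0.31 in microglia and -0.07 in inhibitory neurons. Of the transcription factors, Xbp1 was higher in 3 of 3, between 0.10 and 0.31, and Atf4 was listed once, at 0.23.

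Co-chaperone and heat shock factor genes lay near an even split, whose direction turned with gene length. The list was mainly cytosolic and included some mitochondrial and ER chaperone genes. Of a list of 40 genes, 33 had a row, and 43 of 77 rows in the same 6 tables were higher, with a median of 0.06. Relative to genes of like length 29 were higher and 48 lower, with a median of -0.05. Stip1, which links Hsp70 to Hsp90, was lower in 3 of 3 tables, between -0.34 and -0.09, and St13, an Hsp70 cofactor, in 6 of 7, with -0.65 in OPCs. Ptges3, the Hsp90 cofactor p23, was higher in 5 of 9. Fkbp5, an Hsp90 co-chaperone of the glucocorticoid receptor, was at -0.67 in microglia and -0.42 in astrocytes but at 0.39 in OPCs in the authors' deposited tables. Its astrocyte row, at 9.6% of GWI nuclei, was listed through the control library alone. Its OPC row, at 8.4% of control nuclei, was listed through the GWI library alone. Either listing favours the direction seen. Hsf1 itself lay between -0.16 and 1.53 in 5 tables, the highest in endothelial cells. That endothelial row, at 5.3% of control nuclei, was listed through the GWI library alone. Hsf2 was higher in 5 of 5, between 0.10 and 0.44, as were 15.5% of all genes listed in 5 tables.

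Of the cytosolic CCT ring, which folds actin and tubulin, 7 listed subunit genes fell under the naming rule. Of their 26 rows, 16 were lower and 10 higher in the GWI library, where 50.0% of all rows of the 9 tables were above 0. The subunit gene Tcp1, counted with the co-chaperones above, was higher in 3 of 5 tables, between -0.09 and 0.25. Cct8 was lower in 5 of 6 tables, with -1.17 in OPCs, where it was detected in 7.2% of GWI against 13.9% of control nuclei in the authors' deposited table. That OPC row of Cct8 was listed through the control library alone, which favours a lower value. Cct8 was at -0.44 in Other, -0.39 in endothelial cells and 0.19 in astrocytes. Cct5 was lower in 3 of 3, between -0.42 and -0.25, and Cct2 was higher in 3 of 3, between 0.09 and 0.29. Cct6a was at 0.28 in inhibitory neurons but -0.38 in astrocytes, Cct3 was lower in 2 of 3, Cct4 higher in 2 of 3, and Cct7 at 0.12 and -0.15. Subunits of this one complex therefore did not share a direction.

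The 7 mitochondrial members were lower in 13 of 23 rows and higher in 10, where 50.0% of all rows of the 9 tables were above 0. Hspd1, the mitochondrial chaperonin Hsp60, was lower in all 4 tables that list it, with -0.73 in OPCs (8.6% of GWI against 13.0% of control nuclei), -0.50 in endothelial cells, -0.15 in Other and -0.07 in inhibitory neurons. Its OPC row was listed through the control library alone. The share of all genes listed in 4 tables that were lower in every one was not counted. Dnajc19, a J protein of the inner membrane import motor, was higher in 6 of 6 tables, as were 9.75% of all genes listed in 6. Its values lay between 0.15 and 0.40 outside pericytes. In OPCs (7.6% of control nuclei) and pericytes it was listed through the GWI library alone, which favours a higher value. In pericytes it was at 3.09, with detection in 10.3% of GWI against 3.2% of control nuclei in the authors' deposited table, and it overlaps Fxr1 on the opposite strand in the annotation. Hspa9, the mitochondrial Hsp70, lay between -0.06 and 0.23 in 4 tables. Dnaja3, Dnajc11 and Dnajc15 were lower wherever listed, at -0.05 to -0.19.

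The J proteins of the cytosol and nucleus were higher in 21 of 32 rows, against 50.0% of all rows of the 9 tables, and in 16 of 32 relative to genes of like length. Dnaja2 was higher in 5 of 6 tables, with 0.76 in OPCs (21.4% of GWI against 12.2% of control nuclei) and 0.42 in microglia, and lower in endothelial cells. Dnajb6, which suppresses polyglutamine aggregation, was at 0.56 in OPCs, with 31.9% of GWI against 20.2% of control nuclei in the authors' deposited table, at 1.14 in pericytes and between -0.18 and 0.10 in inhibitory neurons, oligodendrocytes, astrocytes and Other. The microglial row of Dnaja2 (9.4% of control nuclei) and the pericyte row of Dnajb6 (6.3%) were listed through the GWI library alone. Such a listing favours a higher value. Dnajb4 was higher in 5 of 5 tables, between 0.08 and 0.80, as were 15.5% of all genes listed in 5 tables. Dnaja1, the main J partner of Hspa8, was split, higher in 4 of 8, with 0.25 in astrocytes, 0.18 in inhibitory neurons and -0.18 in microglia. Dnajb2 was higher in 2 of 3, and Dnajb5 and Dnaja4 were lower in the 2 tables and 1 table that list them.

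The vesicle J proteins differed little in neurons. Dnajc5, the cysteine string protein of synaptic vesicles, had values of -0.09 (excitatory) and -0.06 (inhibitory), and Dnajc6, the auxilin that recruits Hspa8 to clathrin coats, was at -0.09 in inhibitory neurons in the authors' deposited tables. In oligodendrocytes they were at 0.12 and 0.09. Dnajc13, an endosomal J protein, was at 0.08 in excitatory neurons and -0.09 in microglia. Values past 0.5 stood in the vascular tables alone, with Dnajc5 at -0.59 in endothelial cells and 0.91 in pericytes, Dnajc6 at 0.78 and Dnajc13 at -0.54 in endothelial cells. The pericyte row of Dnajc5, at 9.5% of control nuclei, was listed through the GWI library alone.

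Of the other type C J proteins, 31 of 47 rows were higher, against 50.0% of all rows of the 9 tables, with a median of 0.12. Relative to genes of like length 29 of 47 were higher, with a median of 0.03. Dnajc24, which acts in the diphthamide modification of elongation factor 2, was higher in 6 of 7 tables, with 0.80 in OPCs, 0.42 in astrocytes and 0.92 in endothelial cells. In OPCs it was detected in 16.4% of GWI against 8.4% of control nuclei in the authors' deposited table. Its OPC and endothelial rows (7.4% of control nuclei in the latter) were listed through the GWI library alone. Dnajc7, which carries clients between Hsp70 and Hsp90, was lower in 7 of 9, with -0.28 in microglia and -0.33 in Other, and higher in oligodendrocytes (0.06) and OPCs (0.14). Dnajc12 was listed in Other alone, at 0.89, with 10.3% of GWI against 5.7% of control nuclei. The highest value of the group was Dnajc27 in endothelial cells, at 1.5. That Dnajc27 row, at 7.4% of control nuclei, was listed through the GWI library alone, which favours a higher value. Dnajc2, a ribosome-bound J protein, was higher in 4 of 4, between 0.11 and 0.25, Dnajc18 in 4 of 5 and Dnajc16 in 3 of 4. Dnajc8, a splicing-associated member, was higher in 4 of 5, Dnajc14 in 2 of 2 and Dnajc21 in 2 of 4. Dnajc17 was listed in Other, at -0.46.

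The rest are few. Hspa12a, a distant Hsp70 relative expressed in neurons, was lower in 7 of 7 tables, from -0.35 in astrocytes and -0.30 in inhibitory neurons to -0.09 in Other, as 9.87% of the 831 genes listed in 7 tables were lower in every one. It spans 148 kb, and relative to genes of like length its values lay between -0.22 in astrocytes and -0.01 in Other. Its endothelial relative Hspa12b was listed in endothelial cells alone, at -0.55, with 18.4% of GWI against 23.2% of control nuclei in the authors' deposited table. Hspb1, a small heat shock protein, was also listed there alone, at -0.26, with 29.1% against 35.8%. The Hsp70 exchange factor gene Hspbp1 was at -0.30 in excitatory neurons and -0.25 in Other, and Hspbap1 at -0.17 in inhibitory neurons and -0.26 in Other. Hspb11, named for heat shock but a part of the intraflagellar transport machinery, was at 0.10 in excitatory neurons and 0.36 in Other.

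The members were also counted against all genes of each table without regard to role. In excitatory neurons 20 of 40 listed members were above 0, against 52.3% of all genes, and no member lay past 0.5 in either direction, where 0.765% of all genes were lower and 1.38% higher by that size. In inhibitory neurons 21 of 40 were above 0 against 50.6%, with Hsph1 alone past the size below 0 (0.583% of all genes) and Dnajb9 alone above it (1.98%). Oligodendrocytes had 9 of 17 above 0 against 44.5%, astrocytes 17 of 31 against 48.6% and microglia 6 of 14 against 46.8%. In astrocytes no member passed the size, where 1.02% of all genes were lower and 1.33% higher by it. No member was higher by it in microglia, where 2.96% of all genes were.

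OPCs had 18 of 32 members above 0, against 50.7% of all genes. There 3 members were lower by at least 0.5, namely Cct8, Hspd1 and Dnajb14, against 6.59% of all genes, and 4 were higher, namely Dnajc24, Dnaja2, Dnajc10 and Dnajb6, against 9.68%. Other had 22 of 51 above 0 against 53.1%, with no member lower by that size (2.89% of all genes) and Dnajc12 higher (4.28%). Dnajc12 was listed there through the GWI library alone. In endothelial cells 14 of 36 were above 0 against 48.4%, with 6 lower (23.6% of all genes) and 8 higher (22.7%). In pericytes 9 of 17 were above 0 against 47.2%, with 4 lower (28.2%) and 5 higher (24.2%). Among endothelial rows at or above 10% in both libraries, 4 members were lower (19.1% of such rows of all genes) and 4 higher (18.7%). Among such pericyte rows, 2 were lower (20.3%) and 0 higher (16.1%). Log2 fold changes spread more widely across all genes in endothelial cells and pericytes, with standard deviations of 0.80 and 0.96 against 0.21 to 0.38 in the other tables, so single values there carry less weight.

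Detection and log2 fold change pointed the same way in 229 of the 278 member rows. In 44 rows a gene was detected in more GWI than control nuclei while its log2 fold change was below 0, and in 5 rows the reverse held. Of the 278 rows, 40 had detection under 10% in 1 of the libraries and so were listed through the other library alone. Through the GWI library there were 27, of which 25 were higher, and through the control library 13, of which all 13 were lower. Past 0.5 were 17 lower and 19 higher member rows in all, and 9 lower and 7 higher among rows at or above 10% in both libraries. Without the number of nuclei or their depth, which the sources used here do not state, no interval is given.

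The labelled cell types were checked against 5 or 6 defining markers each, and 3 to 5 of every set had a row in its own table, such as Aqp4, Slc1a3, Gja1 and Aldh1l1 in astrocytes. Markers of neurons also had rows in glial tables. Camk2a, an abundant excitatory neuron transcript, was lower in 9 of 9 tables, between -0.55 in OPCs and -0.17 in pericytes, and was at -0.19 in excitatory neurons themselves. Of 11 neuronal markers, 5 had a row in astrocytes and all 5 were lower, with a median of -0.27, detected in 8.5% to 62.2% of GWI against 9.4% to 63.4% of control nuclei, and with summed percentages of 138.1 against 144.3. In microglia Camk2a alone had a row, detected in 26.3% of GWI against 28.2% of control nuclei. In oligodendrocytes 1 of 2 was lower, with summed percentages of 51.4 in GWI against 53.5 in control nuclei, and in OPCs 3 of 6, with 105.9 against 117.2. In the astrocyte table, where 6 of 9 ER genes were higher, all 4 listed astrocyte markers were above 0, with summed percentages of 141.1 in GWI against 122.7 in control nuclei. In microglia, where all 5 ER genes were higher, Cx3cr1 was at 0.23, P2ry12 at 0.55 and C1qa at 0.75, and C1qa was detected in 58.7% of GWI against 39.1% of control nuclei. The part of either marker set in the Hsp90 and ER values of glia was not tested.

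Short genes had higher medians than long genes in all 9 tables, for example 0.15 for the shortest 25% of genes against -0.13 for the longest 25% in microglia, and least so in endothelial cells, at -0.07 against -0.09. Hsp90aa1 spans 12.1 kb and Hsp90ab1 5.50 kb. Relative to genes of like length, Hsp90aa1 and Hsp90ab1 were lower in 9 of 9 tables and Hsph1 in 8 of 8, and the ER rows above 0 numbered 43 of 66 over all 9 tables, against 47 of 66 as deposited.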

How the data were processed

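Single-nucleus RNA of 1 GWI and 1 control library was compared, each pooled from 3 mice. Per the labels' protocols, droplet capture used 10x Genomics 3′ chemistry, with a depth of 25000 or more reads for each nucleus. Cell Ranger and the build GRCm38 (mm10) are named by the submitters' processing notes without a version. The sources used here do not state how cells were typed, how doublets or free RNA were handled, or which test the authors ran. Nor do they state how reads shared by near-identical copies, such as processed pseudogenes of Hsp90 and Hspa8 genes, were counted, so those levels are uncertain.

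The authors deposited log2 fold changes per gene and cell type, whose scaling and pseudocount they do not state. Detection was deposited as the fraction of nuclei, printed here as percentages. Per the file headers the comparison is GWI against control, with PBS in place of the vehicle of the library names, and the first detection column was taken as GWI. The deposited p-values treat nuclei as replicates and were not used. All rows reach 10% detection in 1 library and lie 0.05 or more from 0 on the log2 scale, so counts cover listed genes only.

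Members were chosen by symbol and sorted into 13 roles. The members, roles and lists were chosen with earlier results of these data known. Named members are the 3 highest and 3 lowest of each table, those past 0.5 outside the vascular tables, and those in at least 6 tables. Remaining members, list genes named beside them and the ER and cytosolic pairs were chosen after their values were seen. With 1 library per group no test was run, and members were counted past a size of 0.5 on the log2 scale. The share of all genes with 1 direction in every table was counted only for genes listed in at least 5 tables. Runs in fewer tables, and most counts short of every table, have no such share beside them and only describe the gene. Gene positions and lengths came from GENCODE M21, which matched 97.3% of symbols and all 59 members. A marker gene of the cell type check is not reported here. The summaries and motif search were checked on simulated data. Python 3.11.15, pandas 2.3.3, numpy 2.4.6 and matplotlib 3.10.9 were used.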

Additional observations from a re-analysis of the deposited data

Results flagged for a closer look

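For 3 members, 1 cell type lay past the size of 0.5 in one direction and another past it in the opposite direction. Dnajb14 had a log2 fold change of -0.54 in OPCs and 1.34 in pericytes. Dnajc5 was at -0.59 in endothelial cells and 0.91 in pericytes. Dnajc8 was at -1.03 in pericytes and 0.90 in endothelial cells. With 1 library per group the differences between these cell types were not tested. Each pair includes a vascular table, where 22.7% to 28.2% of all genes pass that size in each direction. The pericyte row of each member was listed through 1 library alone, which favours the direction seen. Dnajb14 was at 7.9% and Dnajc5 at 9.5% of control nuclei, and Dnajc8 at 6.4% of GWI nuclei. Without these rows none of the 3 members passed that size in both directions.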

How the results depend on the processing

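The medians of the members in each table lay between -0.18 and 0.13, and 17 of 54 values under other settings changed sign, in 8 of 9 tables. A shift of at least 0.1 was taken as a move. Centred on genes of like length, the median was 0.0019 in inhibitory neurons, -0.0883 in oligodendrocytes, -0.0374 in OPCs and -0.0663 in pericytes. With genes detected in at least 25% of nuclei it was -0.0565 in inhibitory neurons, -0.042 in oligodendrocytes, -0.13 in astrocytes and -0.54 in pericytes, with 2 members left there. The mean in place of the median gave -0.053 in oligodendrocytes, 0.0014 in microglia, 0.0049 in endothelial cells and 0.27 in pericytes. Subtracting each gene's median in the other tables gave 0.0356 in microglia and 0.019 in pericytes. Centring on the table's median gave 0.23 in pericytes, and centring on genes of like detection gave -0.0164 in OPCs.

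Of the 278 member rows, 17 were lower and 19 higher by at least 0.5. These counts were 3 and 5 at a size of 1, 58 and 53 at 0.25, 6 and 2 with detection of at least 25%, 9 and 7 with detection of at least 10% in both libraries, and 7 and 6 without the endothelial and pericyte tables, where the last 2 alternatives were chosen after seeing the data. The cause of these shifts beyond fewer rows or another size was not tested. Hsp90aa1 and Hsp90ab1 were lower in 9 of 9 tables under the 3 centrings within a table, and Hspa8 in 7 of 8. Hsph1 was lower in 8 of 8 under centring on the table and on length, and in 7 of 8 under centring on detection. ER rows above 0 numbered 43 to 48 of 66 under those centrings and 38 of 57 with detection of at least 10% in both libraries, and no named value past 0.5 changed sign under the alternatives run. No paired analysis was possible because each group is 1 library.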

Other observations

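Immediate early genes, which neurons switch on with activity, were described from a list of 14, of which 11 had a row. Of their 26 rows in the authors' deposited tables, 11 were above 0, and the median was -0.11. Other held 7 of the rows, the most of any table.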
